A study of Mus musculus with 3 samples.

Results

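The genes described here encode 10 RNA-binding proteins that control how long messenger RNAs of male germ cells last and when they are translated: Dazl, Boll, Ythdc2, Meioc, Rbm46, Ybx2, Ybx3, Pabpc1, Celf1 and Elavl1. They were chosen by symbol, and each symbol matched 1 of the 32285 rows of the count tables. The series measured single cells of adult mouse testis with a 10x Genomics 3′ kit, in which each messenger RNA is copied near its 3′ end and counted once through a unique molecular identifier (UMI). Wildtype 1 and wildtype 2 are libraries of 1 wildtype mouse each, and the knockout library holds pooled cells of 2 mice labelled as conditional Tex10 knockouts. All mice carry the strain label C57BL/6N. The Cre driver, the deleted exons and the mice's exact ages are not given in the sources used here.

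In the testis, germ cells divide as spermatogonia, enter meiosis as spermatocytes and reshape themselves into sperm as haploid spermatids. Much of this programme runs on messenger RNAs that are made early and used late, because transcription stops as the spermatid nucleus condenses. RNA-binding proteins bridge that interval. The DAZ family promotes translation through sites in 3′ untranslated regions, YTHDC2 and MEIOC clear mitotic transcripts at meiotic entry, and Y-box proteins package messages that are stored until protamines replace histones. General factors such as the poly(A)-binding protein PABPC1 act on most messages.

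The promoters of 5 members with a match to a motif of meiotic entry or of pachytene transcription are shown first. RefSeq windows on GRCm38.p6 that run from 250 bases before to 50 bases after the annotated start were at hand for 8 of the 10 members, in 10 windows. Both strands were searched for a MYB element (CAACTG or CAACGG or TAACTG or TAACGG), a STRA8 motif (CNCCTCAG) and a cAMP response element (TGACGTCA). The sequences are given 5′ to 3′ on the gene's strand, with matches in capitals. The window of Dazl, at chr17:50293571-50293870 on the minus strand, holds a STRA8 motif 16 bases after the start. The second of the windows of Boll, at chr1:55362679-55362978 on the minus strand, holds a MYB element 16 bases after the start. The window of Meioc, at chr11:102665335-102665634 on the plus strand, holds MYB elements that begin 176 and 7 bases before the start. The window of Rbm46, at chr3:82876434-82876733 on the minus strand, holds a STRA8 motif that begins 16 bases before the start. The second of the windows of Ybx2, at chr11:69936078-69936377 on the plus strand, holds a STRA8 motif that begins 180 bases before the start.
Dazl: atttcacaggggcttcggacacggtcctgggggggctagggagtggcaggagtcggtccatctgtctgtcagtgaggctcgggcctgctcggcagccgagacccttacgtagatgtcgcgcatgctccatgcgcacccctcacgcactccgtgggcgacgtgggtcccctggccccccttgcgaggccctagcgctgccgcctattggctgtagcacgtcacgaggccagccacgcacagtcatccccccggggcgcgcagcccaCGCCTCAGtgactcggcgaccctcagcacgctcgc
Boll: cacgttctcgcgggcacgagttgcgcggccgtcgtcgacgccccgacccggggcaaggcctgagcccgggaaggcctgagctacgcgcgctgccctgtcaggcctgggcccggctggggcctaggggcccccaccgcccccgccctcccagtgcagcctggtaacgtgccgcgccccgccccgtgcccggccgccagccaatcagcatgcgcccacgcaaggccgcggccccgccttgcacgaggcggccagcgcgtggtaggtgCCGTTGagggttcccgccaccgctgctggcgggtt
Meioc: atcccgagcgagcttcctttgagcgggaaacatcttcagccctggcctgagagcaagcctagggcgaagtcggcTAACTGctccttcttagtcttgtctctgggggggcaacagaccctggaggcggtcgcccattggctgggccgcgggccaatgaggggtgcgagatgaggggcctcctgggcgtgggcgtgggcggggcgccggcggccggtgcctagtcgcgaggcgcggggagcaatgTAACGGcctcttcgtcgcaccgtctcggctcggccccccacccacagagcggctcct
Rbm46: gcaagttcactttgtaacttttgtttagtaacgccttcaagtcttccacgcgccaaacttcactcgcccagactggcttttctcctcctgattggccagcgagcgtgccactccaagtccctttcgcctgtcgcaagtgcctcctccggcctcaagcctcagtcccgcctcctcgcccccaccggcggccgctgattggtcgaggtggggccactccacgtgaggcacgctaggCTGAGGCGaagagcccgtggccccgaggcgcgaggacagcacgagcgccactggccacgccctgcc
Ybx2: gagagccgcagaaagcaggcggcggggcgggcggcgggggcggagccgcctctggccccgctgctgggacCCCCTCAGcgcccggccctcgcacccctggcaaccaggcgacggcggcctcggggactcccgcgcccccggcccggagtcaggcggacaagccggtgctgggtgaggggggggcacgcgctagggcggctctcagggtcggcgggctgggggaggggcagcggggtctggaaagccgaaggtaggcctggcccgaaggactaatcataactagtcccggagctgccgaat
The window of Elavl1 also holds a STRA8 motif, and no letters of any of the motifs were found in the windows of Ybx3 and Celf1. A STRA8 motif was thus found in 4 of the 10 windows, where 7.94% of all 32851 windows hold one. A MYB element was found in 2 of 10, beside 28.3% of all windows. No member's window holds the cAMP response element, which 1.79% of all windows hold. The matches did not follow the order of the peaks given below. Meioc, the earliest to peak, has no STRA8 motif in its window, while Ybx2 and Elavl1, which peak in finer clusters of late spermatocytes, have one. A match of letters is a description of the window and shows no binding.

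The cells were grouped by clustering with the 10 genes left out of the variable genes, and clusters were named from fixed markers of 12 cell types, so each class name stands for a marker-defined group (spermatogonia-like and so on). The named germ cell classes held 3247, 4441 and 3681 cells of wildtype 1, wildtype 2 and the knockout library, of 7519, 7704 and 11084 kept barcodes. Clusters with few UMIs, which were kept out of the classes, held 54.8%, 40.0% and 64.3% of them. A cluster of 1130 cells in late spermatocytes also held cells that finer clustering placed in round spermatids (629 cells). The germ cell class medians ran from 6244 to 44875 UMIs per cell, and the knockout library was the deepest in all 5 germ cell classes and in peritubular myoid cells, the contractile cells around the tubules. Between 27 and 30 cell barcodes were shared by any pair of libraries. Levels are UMIs of a gene per 1000000 UMIs of the class (CPM). In droplet data free RNA adds UMIs to every cell: Prm1, a protamine gene of condensing spermatids, stood at 3474, 3883 and 3410 CPM in the myoid cells of wildtype 1, wildtype 2 and the knockout library, beside 99590, 100882 and 90089 CPM in elongating spermatids. The level in myoid cells is therefore given beside low levels in germ cells. It does not tell free RNA from a gene's own expression in myoid cells. A class level does not tell fewer expressing cells from less RNA per cell.

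Tex10, the targeted gene, was measured first. In spermatogonia it stood at 142, 125 and 132 CPM in wildtype 1, wildtype 2 and the knockout library. In round spermatids it stood at 22.5, 23.9 and 16.5 CPM. The knockout library was inside the wildtype range in the first of these classes and below both wildtype libraries in the second, at 71.0% of their mean. It was also below both in early and late spermatocytes, at 92.6% and 85.8%. In elongating spermatids, at 2.27 to 3.35 CPM, and in myoid cells, with 16, 10 and 14 UMIs, it was at 69.4% and 80.6%. Because the deleted exons are not given and the kit reads 3′ ends, the level of Tex10 does not check the genotype label. Exons of Invs overlap Tex10 on the other strand. Reads of the pair could be mixed only if counting ignored the strand, which is not given in the sources used here.

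For order in time the same cells were also cut more finely, into 19 germ cell clusters with at least 30 cells per library, numbered from spermatogonia (cluster 1) to late elongating spermatids (cluster 19). Cluster 1 was led by Uchl1, Crabp1 and Dmrt1. Cluster 2 was led by Stra8 and Prdm9, clusters 3 and 4 by Dmc1 and Meiob, clusters 6 and 7 by Piwil1 and Pou5f2, and cluster 8 by Ccna1 and Ccnb1, genes of the meiotic divisions. Clusters 9 to 12 are round spermatids and clusters 13 to 19 elongating ones, with Tnp2 and Tnp1 leading clusters 15 and 16. The order within a class follows 1 marker per class and was chosen after the data were seen. By the highest mean over the 3 libraries, Meioc peaked in cluster 2, Ythdc2 and Celf1 in cluster 3, Dazl and Rbm46 in cluster 4, Boll and Pabpc1 in cluster 5, Ybx2 in cluster 6, Ybx3 in cluster 7 and Elavl1 in cluster 8. Each of these except Celf1 peaked in the same cluster in all 3 libraries, and Celf1 peaked in cluster 4 in wildtype 1. Of the 10 genes 7 peaked in early spermatocyte clusters and 3 in late ones, while 34.5% and 19.5% of 11098 genes with at least 20 CPM in a cluster peaked there. None peaked in spermatogonia or spermatids.

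**Figure D1:**
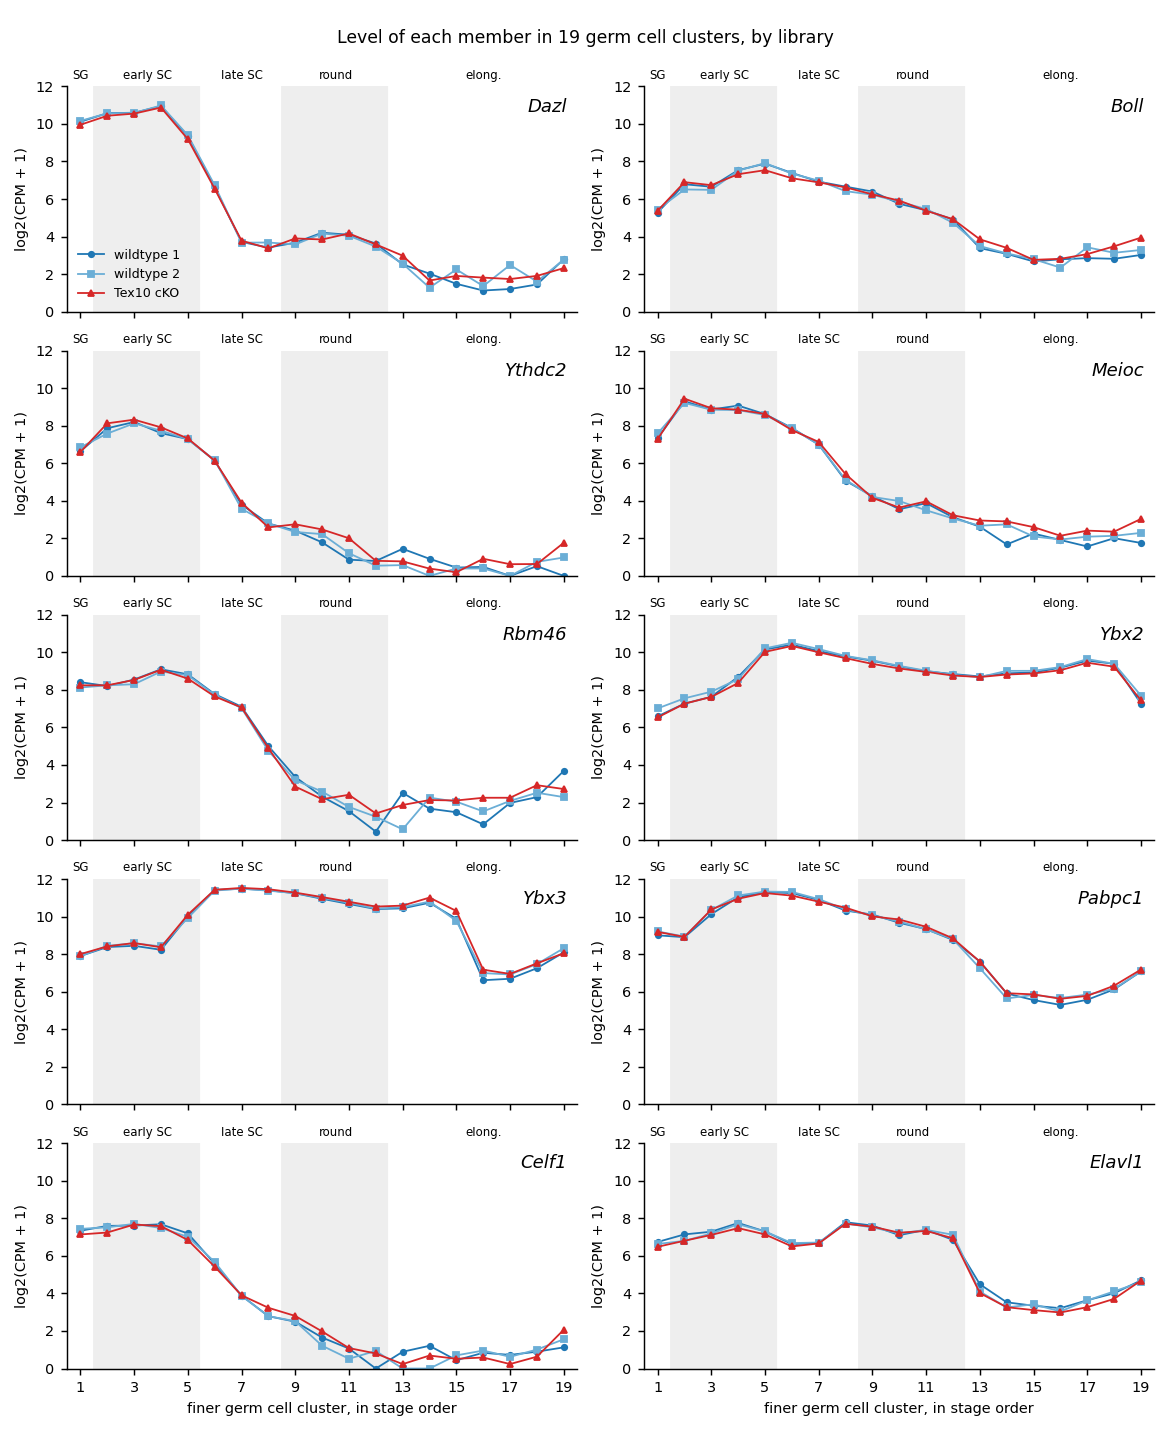
Level of each member as log2(CPM + 1) (vertical axis) in 19 germ cell clusters in stage order (horizontal axis), with 1 line per library and classes marked by shading (SG, spermatogonia; SC, spermatocytes). The lines of the 3 libraries nearly coincide wherever the level is high, and the fall of Dazl, Ythdc2, Meioc, Rbm46 and Celf1 through late spermatocytes contrasts with Ybx3, which reaches 2893 CPM in cluster 7.

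Dazl (chr17:50279395-50293636, minus strand), whose protein is needed for germ cells to develop and enter meiosis, was at 1107, 1146 and 991 CPM in the spermatogonia of wildtype 1, wildtype 2 and the knockout library. In early spermatocytes it was at 1197, 1212 and 1153 CPM. The early spermatocyte level exceeded the spermatogonial one in every library, but the lowest of the former, 1153 CPM, lay just above the highest of the latter, 1146 CPM. The finer clusters show a rise to 1954 ± 75.2 CPM (SD, n = 3 libraries) in cluster 4, followed by a steep fall. Dazl was at 98.5 CPM in cluster 6 and at 12.2 CPM in cluster 7. It was thus high through early spermatocytes and low from cluster 7 on. With doublets kept, or at most 5% mitochondrial UMIs allowed, its highest class became spermatogonia. In myoid cells it was at 1.76, 2.12 and 0 CPM, from 1, 1 and 0 UMIs. The level in elongating spermatids, 2.29 to 3.33 CPM, is near that of myoid cells. After thinning each cell to 2000 UMIs, 89.7%, 91.1% and 87.1% of spermatogonia and 0 of 94, 89 and 94 myoid cells had a Dazl UMI. A count of 0 of 94 allows a share of cells with a UMI of up to 3.19% by 3 counts of the total, and of up to 3.85% by the exact 95% binomial interval.

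Boll (chr1:55248658-55363469, minus strand) encodes the DAZ family member with the widest range among animals, which mice need for spermatid development. In early spermatocytes it was at 191, 185 and 158 CPM in wildtype 1, wildtype 2 and the knockout library, and in late spermatocytes at 125, 120 and 115 CPM. Spermatogonia were at 37.7, 42.3 and 40.5 CPM, above the 7.12 to 15.9 CPM of myoid cells. Boll followed Dazl by 1 cluster, and it declined slowly where Dazl dropped: its level was 220 ± 30.8 CPM in cluster 5, 121 CPM in cluster 7 and 56.2 CPM in cluster 10. The levels of the classes did not overlap between neighbours in the order early spermatocytes, late spermatocytes, round spermatids, spermatogonia and elongating spermatids, although round spermatids (lowest 43.0 CPM) and spermatogonia (highest 42.3 CPM) were separated by less than 1 CPM.

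Meioc (chr11:102663716-102682237, plus strand) encodes the partner of YTHDC2. It was the earliest of the 10 to peak. It was at 161, 191 and 155 CPM in spermatogonia and at 460, 436 and 453 CPM in early spermatocytes of wildtype 1, wildtype 2 and the knockout library. Within early spermatocytes cluster 2, led by Stra8, had 629, 592 and 693 CPM. The step from cluster 1 to cluster 2 was larger than the spread of the libraries in either, and Meioc then fell to 130 CPM in cluster 7 and 36.0 CPM in cluster 8.

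Ythdc2 (chr18:44827746-44889724, plus strand) encodes an RNA helicase that binds N6-methyladenosine. It was at 98.1, 114 and 95.9 CPM in spermatogonia and at 193, 192 and 219 CPM in early spermatocytes. Late spermatocytes were at 26.7, 26.6 and 27.2 CPM. Every library thus had about the same profile, with the peak of 296 ± 20.7 CPM in cluster 3, 1 cluster after Meioc. The level of 12.6 CPM in cluster 7 is close to the 6.36 to 11.4 CPM of myoid cells. Of the 31-base words in the last 500 bases of its transcripts, 6.29% also occur in the ends of 420 other genes, so part of its reads could be shared.

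Rbm46 (chr3:82837228-82876483, minus strand) encodes an RNA-binding protein that works with YTHDC2 and MEIOC. It was at 339, 278 and 302 CPM in spermatogonia and at 452, 416 and 416 CPM in early spermatocytes. Where Meioc rose from cluster 1 to cluster 2, Rbm46 was at 307 CPM in cluster 1 and 299 CPM in cluster 2, and it peaked in cluster 4 at 529 ± 22.7 CPM. It was down to 28.6 CPM in cluster 8 and 7.87 CPM in cluster 9. Myoid cells were at 33.5, 23.3 and 22.8 CPM, above the level of Rbm46 in all spermatid clusters. Expressed as a share of cells with a UMI after thinning, Rbm46 was found in 51.6%, 43.6% and 42.3% of spermatogonia and in 6.38%, 5.62% and 2.13% of myoid cells.

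The mitotic transcripts that YTHDC2 and MEIOC are known to lower were followed through a list of 8 genes. Of these, 4 were highest in spermatogonia, 3 in early and 1 in late spermatocytes, while 16.1% of all genes were highest in spermatogonia. Named after their values were seen, Bub1 went from 103 CPM in cluster 1 to 487 CPM at its peak in cluster 3, Top2a from 472 to 941 CPM in the same clusters, and Cdk1 from 99.6 CPM to 296 CPM in cluster 4. Ccna2, the cyclin of S phase and mitosis, was at 170, 174 and 171 CPM in spermatogonia of wildtype 1, wildtype 2 and the knockout library and at 10.0, 9.39 and 9.05 CPM in early spermatocytes. The drop was seen in every library, and it was steepest between cluster 1 (172 CPM) and cluster 2 (27.6 CPM), where Meioc rose from 169 to 638 CPM. These are levels side by side in the same cells, and a relation between them was not tested.

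Ybx2 (chr11:69935796-69941605, plus strand) encodes a Y-box protein of germ cells that stabilises and stores mRNA. It was at 1078, 1128 and 1033 CPM in late spermatocytes and at 539, 573 and 512 CPM in elongating spermatids of wildtype 1, wildtype 2 and the knockout library. In spermatogonia it was at 96.3, 128 and 91.6 CPM. Myoid cells were at 116, 108 and 107 CPM, within the range of spermatogonia, so no level above that of myoid cells is read for spermatogonia. The part of free RNA was not tested. After thinning, 19.3%, 23.8% and 16.6% of spermatogonia and between 18.0% and 22.3% of myoid cells per library had a Ybx2 UMI. The rise came late in early meiosis, from 374 CPM in cluster 4 to 1121 CPM in cluster 5, and the peak was 1370 ± 80.8 CPM in cluster 6. Ybx2 then fell to 413 CPM in cluster 13 and was higher again at 748 ± 50.4 CPM in cluster 17, in all 3 libraries. It was down to 177 ± 26.9 CPM in cluster 19.

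Ybx3 (chr6:131364855-131388476, minus strand) encodes a Y-box protein that binds and holds back stored spermatid messages. It was at 239, 237 and 255 CPM in spermatogonia, at 2736, 2691 and 2824 CPM in late spermatocytes and at 709, 651 and 781 CPM in elongating spermatids. Myoid cells were at 376, 472 and 482 CPM, above spermatogonia in every library. The part of free RNA in either level was not tested. Its level rose from 322 CPM in cluster 4 to 2718 CPM in cluster 6 and peaked at 2893 ± 47.7 CPM in cluster 7. It was still at 1848 ± 188 CPM in cluster 14. Between clusters 15 and 16 it fell from 939, 871 and 1256 CPM to 96.6, 126 and 143 CPM. The fall was seen in every library and the ranges did not overlap.

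The Y-box genes therefore separated between clusters 15 and 16 of elongating spermatids. From cluster 15 to cluster 16 Ybx2 went from 487, 516 and 469 CPM to 580, 594 and 528 CPM, while Ybx3 fell. Ybx1, the broadly expressed relative that is not among the 10, went from 919, 885 and 1087 CPM to 123, 154 and 151 CPM over the same step. Over this step Ybx1 and Ybx3 thus fell and Ybx2 did not, in every library. In cluster 19, with a median of 3904 UMIs per cell, Ybx2 was lower than both relatives in every library. Ybx2 was at 153, 206 and 172 CPM there, Ybx3 at 272, 317 and 263 CPM and Ybx1 at 372, 408 and 398 CPM. From cluster 15 to cluster 16 Prm1 rose from a mean of 109922 to 133689 CPM. Tnp1, which encodes a transition protein, peaked at 46419 CPM in cluster 16 and was at 11204 CPM in cluster 17. CPM is a share of all UMIs, so a larger share of protamine messages lowers other shares, and its part in the fall of Ybx3 was not tested.

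**Figure D2:**
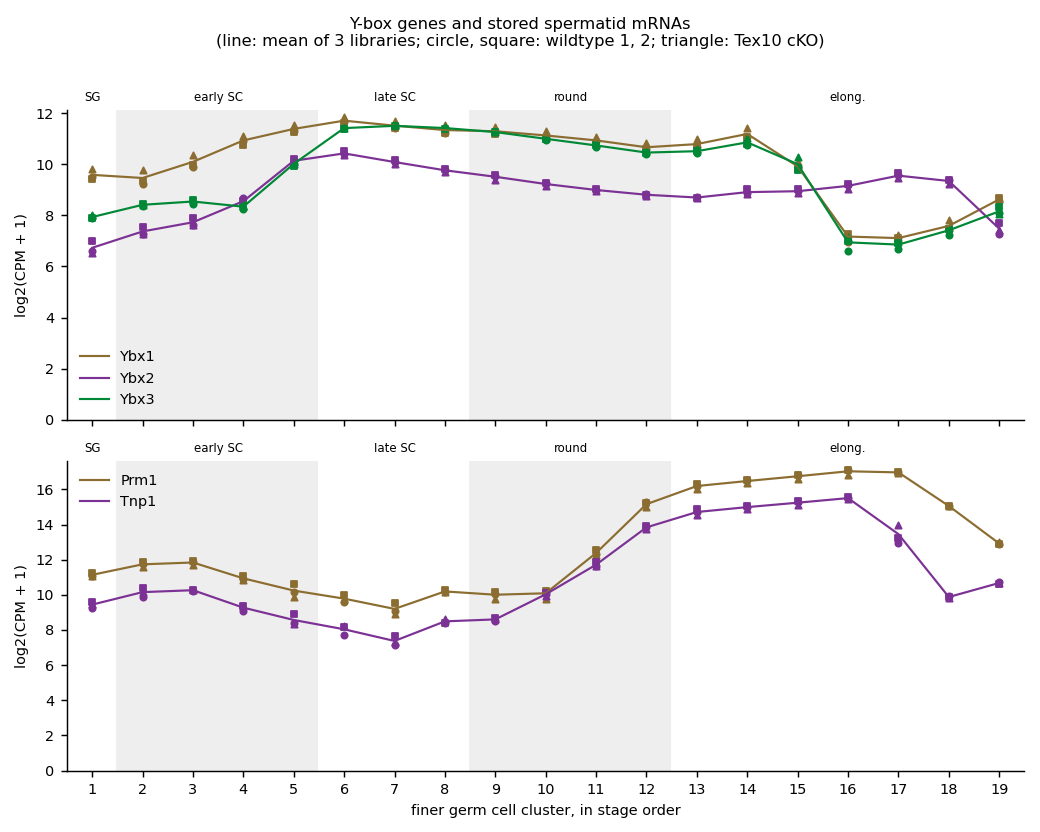
Levels as log2(CPM + 1) (vertical axes) over the 19 germ cell clusters (horizontal axis) of Ybx1, Ybx2 and Ybx3 (top) and of Prm1 and Tnp1 (bottom), with the mean of 3 libraries as a line and each library as a symbol. Ybx1 and Ybx3 drop between clusters 15 and 16, while Ybx2 is higher in cluster 17 than in cluster 13. In cluster 19 Ybx2 is below Ybx1 and Ybx3.

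Pabpc1 (chr15:36595661-36609668, minus strand) encodes the main cytoplasmic protein on poly(A) tails. It was at 511, 590 and 580 CPM in spermatogonia, at 2032, 2042 and 1949 CPM in early spermatocytes and at 67.2, 67.9 and 77.9 CPM in elongating spermatids. Early and late spermatocytes did not overlap, although the lowest early value (1949 CPM) and the highest late value (1859 CPM) were close. In 3 of the alternatives to the processing late spermatocytes were highest. Elongating spermatids lay below myoid cells, which were at 395, 479 and 494 CPM. In finer clusters Pabpc1 rose from 482 CPM in cluster 2 to 2517 ± 69.6 CPM in cluster 5 and fell to 444 CPM in cluster 12 and 45.4 CPM in cluster 16. Of the words in its transcript ends 11.6% occur in the ends of 466 other genes, so part of its reads could be shared. The share of words does not give the share of reads, so the level of Pabpc1 is uncertain by an unknown amount.

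Celf1 (chr2:90940382-91019497, plus strand) encodes a protein that binds GU-rich elements and promotes removal of poly(A) tails. It was at 161, 173 and 140 CPM in spermatogonia and at 172, 160 and 154 CPM in early spermatocytes. The ranges overlap, and Celf1 was the only member whose highest class differed between libraries. It fell with the early genes, to 46.3 CPM in cluster 6 and 6.75 CPM in cluster 8. Myoid cells, at 86.5, 110 and 82.5 CPM, were above all late spermatocyte and spermatid clusters.

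Elavl1 (chr8:4285382-4325413, minus strand) encodes HuR, which binds AU-rich elements and stabilises messages. It held at least 0.5 of its peak in 9 of the 19 clusters, the most of the 10 members. It was at 170, 160 and 148 CPM in early spermatocytes, at 132, 134 and 119 CPM in late spermatocytes and at 143, 152 and 146 CPM in round spermatids. Early spermatocytes and round spermatids overlapped, and round spermatids were highest in 4 of the alternatives. The finer clusters resolve a low of 96.5 CPM in cluster 6 between 199 CPM in cluster 4 and 213 ± 6.65 CPM in cluster 8, the cluster of the meiotic divisions. Elavl1 then fell from 125 CPM in cluster 12 to 17.6 CPM in cluster 13, below myoid cells, whose lowest library had 72.0 CPM. Exons of Ccl25 overlap it on the other strand, so their reads cannot be told apart without strand.

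**Figure D3:**
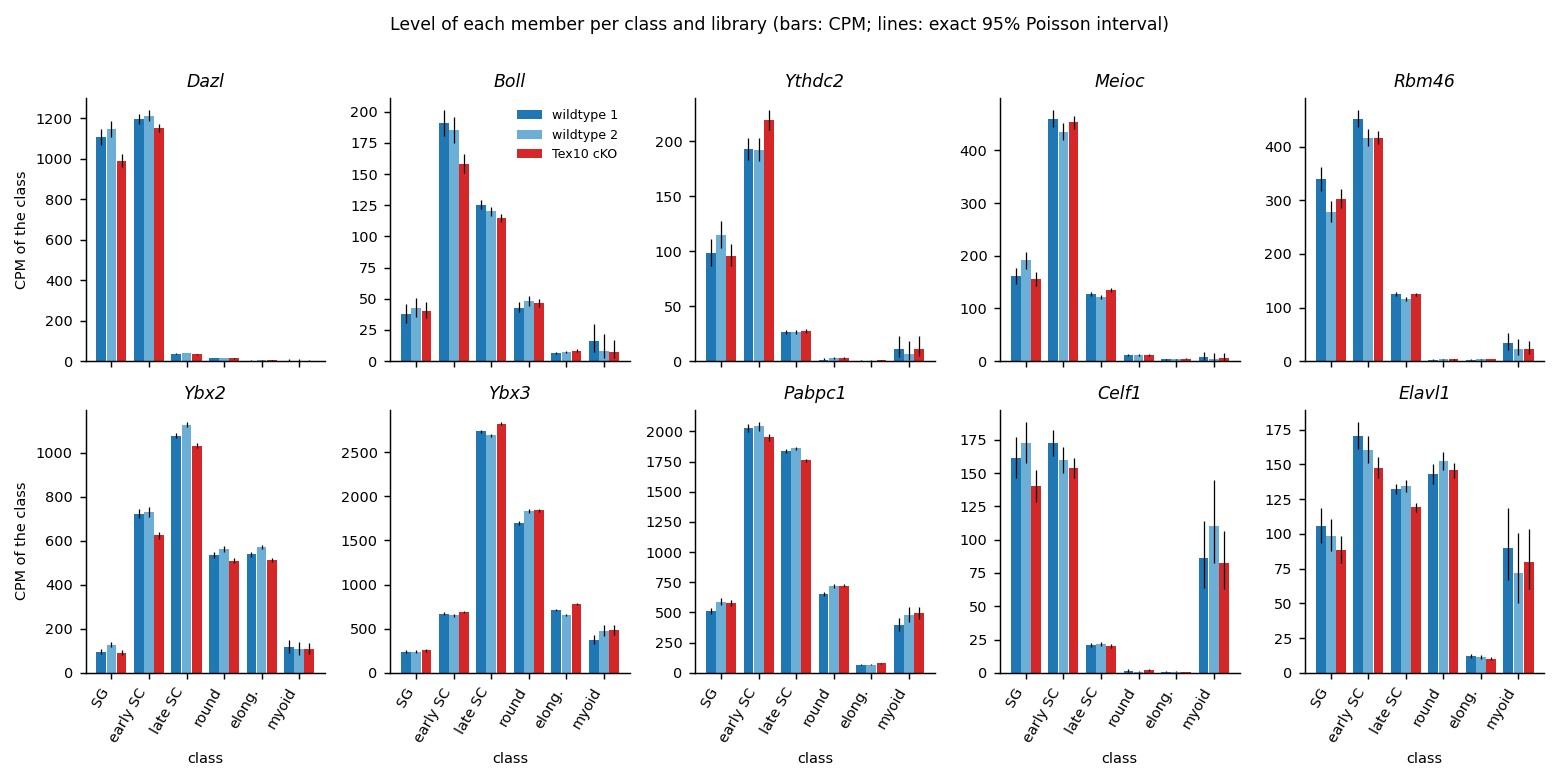
Level of each member in CPM of the class (vertical axes, starting at 0, scaled per gene) in 5 germ cell classes and in peritubular myoid cells (horizontal axes), with 1 bar per library and exact 95% Poisson intervals that cover counting error only. Differences between classes exceed those between libraries for most members, and the Ybx2 levels of spermatogonia and myoid cells overlap.

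Profiles were compared by Pearson's r of log2(CPM + 1) over 57 points, which are 19 clusters in 3 libraries, among 11692 genes. The points share libraries, depth and the same clusters, so r is a description. Ythdc2 and Celf1 were each among the closest genes of the other (r = 0.99), and r was 0.98 between Ythdc2 and Meioc, 0.96 between Ythdc2 and Dazl and 0.96 between Meioc and Rbm46. Boll was alike to Pabpc1 (0.97) and Elavl1 (0.90) more than to Dazl (0.74). Ybx2 and Ybx3 had r = 0.48 with each other. The genes most alike to Dazl were Fcho2, Caprin2 and Appl1 (0.98 each), and those most alike to Boll were Cwc15 (0.99), Dmap1 and Hsp90aa1 (0.98 each). For Ythdc2 they were Spcs3, Stag1 and Celf1 (0.99 each). For Meioc they were Tpr, Dgkd (0.99 each) and Rabep1 (0.98), for Rbm46 Pfdn2, Ddx6 and Srrm1 (0.99 each), and for Celf1 Ssb, Esf1 and Ythdc2 (0.99 each). For Ybx2 they were Rangrf, 1700008K24Rik (0.94 each) and Lrrc71 (0.93), and for Ybx3 Btbd1 (0.97), Lypd9 and Dkkl1 (0.96 each). For Pabpc1 they were Dync1i2, Mrpl53 and Selenos (0.98 each), and for Elavl1 they included Immp1l and Ubqln1 (0.98 each).

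The knockout library was then set against each wildtype library. With 1 knockout library there is no test. A size rule with 4 conditions was used instead. After adding 1 CPM, the log2 ratios of the knockout to both wildtype libraries had to share a sign and have a size of 1 or more. The smaller had to be 2 times the wildtype 2 to wildtype 1 ratio or more, and the gene had to reach 20 CPM somewhere. In spermatogonia 0 of the 10 members passed, beside 0.339% of all 7383 genes. In early spermatocytes 0 of 10 passed, beside 0.247%. Late spermatocytes had 0 of 10 as well, beside 0.718%. In round spermatids, where 5 members reached 20 CPM, 0 passed, beside 1.01%. In elongating spermatids 0 of 3 passed, beside 1.38%, and in myoid cells 0 of 6, beside 3.91%. At these background shares a count of 0 among 10 genes is no result about the members.

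Most members lay outside the range of the wildtype pair, as most genes did. The knockout library was outside that range for 7 of 10 members in spermatogonia (69.5% of all genes), 9 of 10 in early spermatocytes (73.3%), 9 of 10 in late spermatocytes (79.1%), 3 of 5 in round spermatids (69.8%), 3 of 3 in elongating spermatids (78.6%) and 5 of 6 in myoid cells (70.2%). The median log2 ratio of the members was -0.16 in spermatogonia, -0.06 in early and -0.08 in late spermatocytes, beside -0.00, 0.02 and 0.01 for all genes. It was 0.03 over the 5 members tested in round spermatids and 0.20 over the 3 in elongating spermatids, beside 0.01 and 0.06.

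Ybx2 was below both wildtype libraries in each class, although in spermatogonia its level is not read as above that of myoid cells. In early spermatocytes, where it was at 724, 731 and 624 CPM, the knockout library had 85.8% of the wildtype mean, and in elongating spermatids it had 92.2%. Over the finer clusters the knockout library was lowest for Ybx2 in 17 of 19. Ybx3 went the other way, above both wildtype libraries in each class and in 16 of 19 finer clusters, with 104% of the wildtype mean in late spermatocytes and 115% in elongating spermatids. In early and late spermatocytes and in spermatogonia the sign of Ybx3 was not kept in every alternative of the processing. The finer clusters all come from the same libraries, so for both genes agreement across clusters repeats a difference between libraries. Such agreement is not independent support, and the share of all genes with counts as one-sided is not given here. In cluster 15, just before its fall, Ybx3 was at 1256 CPM in the knockout library beside 939 and 871 CPM. Where the fall was placed by the clustering in each library was not tested.

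Boll was at 84.2% of the wildtype mean in early spermatocytes, where its knockout interval lay below those of both wildtype libraries. These intervals cover counting error only, and the share of all genes with intervals set apart in this way was not counted. Of 12 finer clusters with at least 20 CPM, Boll was below both wildtype libraries in 5, above both in 4 and between them in 3. In cluster 5, its lowest ratio, it was at 235, 240 and 184 CPM, and in clusters 2 and 3 the knockout library had 118% and 112% of the wildtype mean. In late spermatocytes the level was 93.7% and in spermatogonia 101%. Dazl was at 88.0% in spermatogonia and at 95.7% in early spermatocytes. It was lowest in the knockout library in all 6 finer clusters in which it reached 20 CPM, at 88.0% to 97.3% of the wildtype mean. These clusters come from the same libraries, so their agreement is not independent support. The ratio of Dazl in early spermatocytes ranged from -0.09 to 0.18 on the log2 scale over alternatives.

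Ythdc2 was at 114% of the wildtype mean in early spermatocytes, where the wildtype libraries, at 193 and 192 CPM, nearly coincided. In spermatogonia it was at 90.2%. Meioc was at 101% in early and 108% in late spermatocytes. In clusters 6, 7 and 8 of late spermatocytes Meioc was at 93.0%, 110% and 126% of the wildtype mean. Rbm46 stayed between 95.9% and 103% in spermatogonia, early and late spermatocytes. Elavl1 was at 86.6%, 89.2% and 89.3% of the wildtype mean in these classes, and Celf1 at 83.9%, 92.6% and 94.1%. In clusters 6, 7 and 8 of late spermatocytes Elavl1 was at 89.96%, 97.7% and 96.8%, each above its ratio in the class. Cluster 8, where Elavl1 peaked, held 185, 221 and 98 cells of wildtype 1, wildtype 2 and the knockout library. The part of this cell mix in the class ratio was not tested. Pabpc1 was at 95.7% in early and 95.3% in late spermatocytes, and at 115% in elongating spermatids. Within late spermatocytes Pabpc1 was at 89.2%, 92.3% and 109% in clusters 6, 7 and 8. Of the class ratios given for these genes, those of Meioc, Rbm46, Pabpc1 in late spermatocytes, Celf1 in late spermatocytes and Boll in spermatogonia changed sign under at least 1 alternative. None of these differences reached 1.5-fold, and with 1 library the difference between mice is not known.

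**Figure D4:**
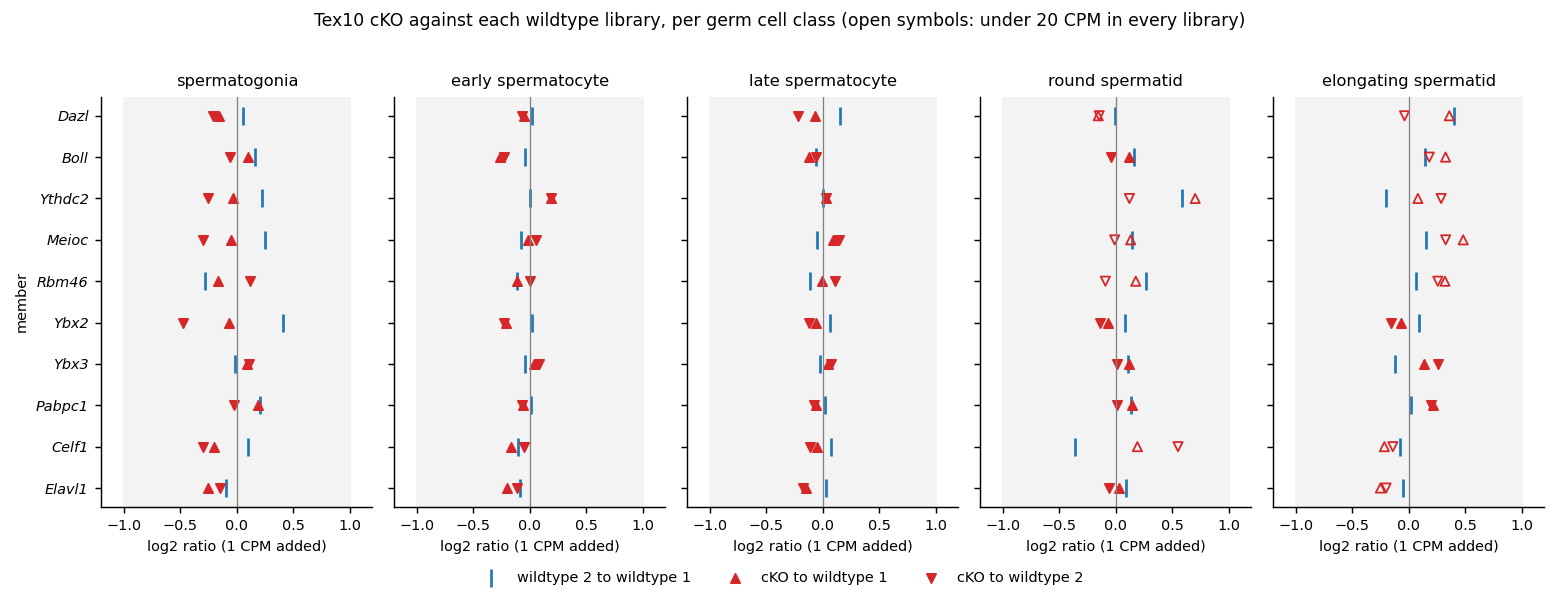
log2 ratio with 1 CPM added (horizontal axes) for each member (vertical axis) in 5 germ cell classes, with triangles for the knockout library against wildtype 1 and wildtype 2 and blue bars for wildtype 2 against wildtype 1; open symbols mark members under 20 CPM in every library. All filled symbols lie within the grey band from -1 to 1, which is the limit for size.

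Ybx1 was compared as the broadly expressed relative of the Y-box members. It was at 716, 676 and 903 CPM in spermatogonia and at 2770, 2702 and 3282 CPM in late spermatocytes of wildtype 1, wildtype 2 and the knockout library. Its knockout interval lay above both wildtype intervals in all 5 germ cell classes and in myoid cells, at 118% to 130% of the wildtype mean. The intervals cover counting error only, and the size rule was met in none of these classes. Ybx1 lies at chr4:119277981-119294604 on the minus strand, on the same chromosome as Tex10 (chr4:48430858-48473459), and the strain background of that chromosome was not examined here. Of the words in its transcript ends 15.2% occur in 8 other genes such as Ybx1-ps2, so part of its reads could be shared. The level of Ybx1 is uncertain by an unknown amount.

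Other genes of RNA control were read from 7 lists. In no germ cell class did a gene of any list pass the size rule in either direction. Of all tested genes 0.247% (early spermatocytes) to 1.38% (elongating spermatids) passed per class, so a count of 0 is no result about the lists. Up to 26 genes per list were tested in a class. For poly(A) and cap machinery 26 of 30 genes were tested in spermatogonia, with a median log2 ratio of 0.01. For writers, readers and erasers of N6-methyladenosine 18 of 20 were tested there, with a median of 0.05, and for 33 other germ cell RNA regulators 26 were tested, with a median of -0.01. The median of all genes was -0.00. Other classes differed: in late spermatocytes the median of 8 N6-methyladenosine genes was 0.11 beside 0.01 for all genes, and in elongating spermatids that of 6 other germ cell RNA regulators was 0.24 beside 0.06. Some medians lay lower: that of 12 stored mRNAs of spermatids was -0.12 in late spermatocytes, beside 0.01. For 9 mRNAs known as bound by DAZL it was -0.09 in early spermatocytes, beside 0.02. These are examples from all lists and classes. Of 19 genes of the N6-methyladenosine list with at least 20 CPM in a finer cluster 13 peaked in early spermatocytes, beside 34.5% of all genes.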

How the data were processed

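Single-cell 3′ libraries of 2 wildtype mice and of a pool of 2 Tex10 knockout mice were analysed. The authors deposited raw UMI counts per gene and barcode. The submitters' processing notes name Cell Ranger 4.0.0, Seurat 4.0.5 and the build mm10, with no role or order; whether counting used the strand is not given in the sources used here. The libraries held 93418341, 96001773 and 147783171 UMIs, and intervals cover counting error only. The whole wildtype libraries differed by more than that, with a chi-square per degree of freedom of 17.7 over 22535 genes.

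Barcodes with at least 1000 UMIs, 500 genes and at most 10% mitochondrial UMIs were kept. Scrublet in scanpy 1.11.5 marked 4, 7 and 1 doublets, so barcodes scoring above the limit of the top 8% per library were left out instead, with ties at the limit kept. On 2000 variable genes without the members and 30 components, Leiden clustering (leidenalg 0.10.2) of a neighbour graph (15 per cell) was run at resolution 1 for classes and 2 for finer clusters. Clusters whose median UMI total was under 3 times the library's lowest were left out. UMIs were summed per library and class. Diffusion pseudotime was computed but did not place late spermatocytes before round spermatids (medians 0.898 and 0.596), so finer clusters were ordered within a class by rising Piwil1 (early spermatocytes), rising and then falling Ccna1 (late spermatocytes, round spermatids) and rising Lelp1 (elongating spermatids). The named genes are the members, Tex10, the 3 genes most alike to each member, any listed gene past the size rule, and Ybx1, Ccna2, Prm1 and Tnp1. A gene among the alike ones is not reported here. The size rule was tested on data with known changes. Alternatives to the filters, the CPM added, the scaling and the clustering were tried. Positions are from GENCODE M21 (GRCm38), and promoters from RefSeq (GRCm38.p6). The members and lists were chosen with earlier results of these data known.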

Additional observations from a re-analysis of the deposited data

Results flagged for a closer look

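The log2 ratio of Pabpc1, the poly(A)-binding protein gene, was 0.2024 in elongating spermatids and -0.0699 in late spermatocytes, as the mean of the ratios of the knockout library to wildtype 1 and wildtype 2. It was singled out because the knockout library was above both wildtype libraries in the first class and below both in the second, outside their counting intervals. In elongating spermatids Pabpc1 was at 67.2, 67.9 and 77.9 CPM in wildtype 1, wildtype 2 and the knockout library, and in late spermatocytes at 1839, 1859 and 1762 CPM. The finer clusters of late spermatocytes did not share a direction: clusters 6, 7 and 8 were at 89.2%, 92.3% and 109% of the wildtype mean. The late spermatocyte ratio ranged from -0.16 to 0.03 over alternatives. Finer clusters of elongating spermatids were at 104.6% to 113.6%, each below the 115% of the class. The part of the cell mix in the class ratios was not tested. The difference between the classes was not tested, because there is 1 knockout library. Myoid cells were at 395 to 494 CPM, far above elongating spermatids, so their level is no measure of free RNA for this gene. Free RNA can add to the level in elongating spermatids, and its part was not tested.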

How the results depend on the processing

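No paired analysis was possible because the wildtype and knockout libraries share no replicate number that pairs mice, and 1 library holds the whole knockout group. The count of members past the size rule stayed at 0 in every class and alternative, with 1 exception. Without the CPM filter Dazl passed in myoid cells, where it had 1, 1 and 0 UMIs in wildtype 1, wildtype 2 and the knockout library. That pass rests on single UMIs, and the share of all genes passing there is not given here. The 125 genes past the rule in at least 1 germ cell class became 340 with a 1.5-fold threshold, 507 without the CPM filter, and 152 without wildtype 2 to 190 without wildtype 1, both of which leave 1 library on each side. Of 60 pairs of member and class, 30 kept the sign of their ratio in all 15 settings, among them Ybx2 in all 5 germ cell classes and Boll and Ythdc2 in early spermatocytes. Dazl in early spermatocytes ranged from -0.09 to 0.18 on the log2 scale. Of 900 alternative ratios 756 moved by less than the wildtype spread and 144 by more. The highest class stayed that of the report in 8 of 8 settings for Boll, Meioc, Rbm46, Ybx3 and Ythdc2, in 7 for Ybx2, 6 for Dazl and Celf1, 5 for Pabpc1 and 4 for Elavl1. The number of members with 1 highest class in all libraries, 9, fell to 7 at resolution 2 and 8 without the cluster named next. A cluster of 1130 cells placed with late spermatocytes split into 501 late spermatocytes and 629 round spermatids at resolution 2. Settings using finer clusters and leaving out that cluster were chosen after the data were seen.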
